A study of Mus musculus with 5 samples.

Results

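The peaks described are the 344 of 10916 peaks in the CCT3 eCLIP list that the deposited annotation places in a 5' UTR, and they were listed under 185 genes. They were chosen by that annotation alone, without use of their fold or p. CCT3 is a subunit of TRiC/CCT, the cytosolic chaperonin ring that folds actin, tubulin and other newly made proteins. The comparison protein is PABPC1, the cytoplasmic poly(A)-binding protein.

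The study immunoprecipitated RNA crosslinked to either protein from GC-2spd(ts), a mouse cell line whose labels describe it as spermatocyte cells, and it names the long noncoding RNA Tug1 as its RNA of interest. The samples were 2 CCT3 immunoprecipitations, named CCT3 and CCT3-2, 1 CCT3 input, 1 PABPC1 immunoprecipitation and 1 PABPC1 input. The labels give the same line for all 5 and no treatment. Both CCT3 samples carry the same library name, so the CCT3-2 list is a second peak list for CCT3 that may not come from a separate culture, and differences between CCT3 and PABPC1 are not checked by replicates. The lists held 10916 CCT3, 18650 CCT3-2 and 14092 PABPC1 peaks, while the read totals of the libraries, and so the depth behind a peak, were not analysed here. CCT3 peaks were listed for 0 of 10 meiotic spermatocyte, 0 of 6 spermatid, 1 of 5 Leydig, 1 of 5 Sertoli and 0 of 6 fibroblast marker genes, and PABPC1 peaks for 5 of 10, 6 of 6, 5 of 5, 4 of 5 and 6 of 6 of them in the same order. None of these 32 marker genes was among the 185. Over all 21900 protein-coding genes, 2003 had a CCT3 peak, 4925 a PABPC1 peak and 177 a CCT3 5' UTR peak (0.808%). Whether the RNA behind the CCT3 and PABPC1 lists was alike was not tested, a limit that holds for every contrast between them below.

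The 5' UTR is the stretch of an mRNA between its cap and its start codon, along which the small ribosomal subunit scans before translation begins. Upstream reading frames, folded structures and internal ribosome entry sites in it are known to set how much protein an mRNA gives. In eCLIP a peak is a short stretch of RNA recovered more often with the protein than in an input library from the same lysate, here given as the authors' log2 fold over input and −log10 p.

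Some peaks that begin near an annotated start can be seen in sequence. Of the 185 genes, 133 (71.9%) had a RefSeq start window of 250 bases before to 50 bases after the start (GRCm38.p6), which is under the 80% needed, so a comparison of base composition or motifs over the genes is void. In those windows, 9 peaks started past the RefSeq start and had at least 15 of their bases in the printed stretch of 30, and these are shown because they begin nearest a RefSeq start that the windows hold. A window marks 1 RefSeq start of a gene, and it was the outermost one of the gene's RefSeq span for 3 of the 9 (Lime1, Pcdh17 and Slc5a3). For the other 6 the span began farther upstream, by 63 bases in Kmt2a, 160 in Zfc3h1, 186 in Fbxo48, 895 in Twnk, 1326 in Patz1 and 16298 in Hoxc4, so the distance to the cap of the mRNA in these cells was not measured. Each is the mRNA strand, 5' to 3', with the bases inside the peak in capitals and the bases before it in lower case.

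Twnk (chr19:45006578-45006607, + strand): tgggggcgggagcgtGGAGCTTTGAAGTGG
Lime1 (chr2:181381228-181381257, + strand): gaggtgtgAGGAGAGCAGAGACTGTGGGAG
Hoxc4 (chr15:103034415-103034444, + strand): gccacccatctttAGCAAGGAAGGATTGTC
Patz1 (chr11:3290453-3290482, + strand): agggggcgTGTGCGCTGGGCGCACCTGAGA
Zfc3h1 (chr10:115384968-115384997, + strand): agggggcgCTAGGAGAGGGAACTGGCGAGC
Kmt2a (chr9:44881260-44881289, - strand): acttacggGGCGAACATGGCGCACAGCTGT
Pcdh17 (chr14:84443582-84443611, + strand): ggagagaaTCCGGACTGCGAGCCCGGCGGC
Slc5a3 (chr16:92058320-92058349, + strand): gtgctttcGCCGTCCGGGAGCTGACCGGCC
Fbxo48 (chr11:16951430-16951459, + strand): aggtaggaGAGGCAGCTCTGCCCTTCCCTG

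Counted from the start of its window as base 1, the first base in capitals lay at base 36 in Twnk, the mitochondrial DNA helicase, and at base 2 in Lime1, a membrane adaptor of lymphocyte signalling. It lay at base 34 in Hoxc4, a homeobox transcription factor, at base 5 in Patz1, a zinc finger transcription factor, and at base 18 in Zfc3h1, a zinc finger protein that links polyadenylated nuclear RNA to the exosome. It lay at base 9 in Kmt2a, a histone H3 lysine methyltransferase, at base 28 in Pcdh17, a protocadherin cell adhesion protein, at base 7 in Slc5a3, a myo-inositol transporter, and at base 29 in Fbxo48, an F-box protein. The log2 folds of these 9 peaks ran from 3.20 for Fbxo48 to 5.31 for Twnk in the CCT3 list. In the CCT3-2 list the Twnk stretch had a log2 fold of 5.56, and the Fbxo48 stretch had no peak. GC content of the part of the peak inside the window ran from 47.1% in Hoxc4 to 78.3% in Pcdh17. The 8 lower-case bases before the peak were the same letters in Patz1 and Zfc3h1. The capitals of Kmt2a hold an ATG, so part of that 146-base peak may be coding sequence although its class is 5' UTR.

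Peaks annotated to 5' UTRs made up 3.15% of the CCT3 list (344 of 10916, Wilson 95% interval 2.84 to 3.50%), 0.912% of the CCT3-2 list (170 of 18650) and 0.263% of the PABPC1 list (37 of 14092). These 3 shares are not comparable, because the lists were classed differently near transcription starts. In the CCT3 list all 101 peaks in the promoter class overlapped the listed start. The CCT3-2 list instead placed all 3012 of its peaks within 1000 bases of a start in the promoter class and none of them in a 5' UTR. The PABPC1 list did the same with its 1858 peaks there. Of the CCT3 peaks within 1000 bases of the listed start, 250 of 1705 (14.7%) were in 5' UTRs, beside 963 in exons, 223 in introns and 167 in 3' UTRs.

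Beyond 1000 bases of the listed start the classes can be compared. There the 5' UTR share was 1.02% for CCT3 (94 of 9211, 0.835 to 1.25%), 1.09% for CCT3-2 (170 of 15638, 0.936 to 1.26%) and 0.302% for PABPC1 (37 of 12234, 0.220 to 0.417%). The difference, CCT3 minus PABPC1, was 0.718 percentage points (Newcombe 95% interval 0.500 to 0.959), and CCT3-2 minus PABPC1 was 0.785 points (0.595 to 0.978). CCT3 minus CCT3-2 was −0.0666 points, with an interval of −0.322 to 0.206 that includes 0. The direction depends on the 3' UTR peaks, which were 92.1% of PABPC1 peaks beyond 1000 bases against 19.6% of CCT3 peaks. With 3' UTR peaks left out, the 5' UTR share was 1.27% for CCT3 (94 of 7409), 1.35% for CCT3-2 (170 of 12557) and 3.81% for PABPC1 (37 of 971). CCT3 minus PABPC1 was then −2.54 points (−3.96 to −1.47), and CCT3-2 minus PABPC1 was −2.46 points (−3.87 to −1.40). All these intervals cover counting error only, treat peaks as independent although neighbouring peaks in a gene are not, and compare lists, not replicated conditions.

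**Figure D1:**
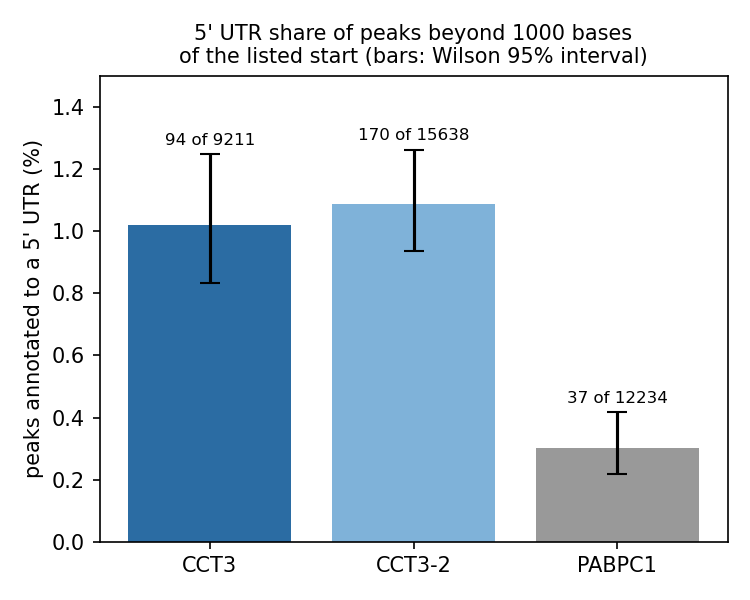
Share of peaks annotated to 5' UTRs, in percent, among peaks beyond 1000 bases of the listed start in the CCT3, CCT3-2 and PABPC1 lists, with Wilson 95% intervals and the counts above each bar. The CCT3 and CCT3-2 bars stand at 1.02% and 1.09% with overlapping intervals, and the PABPC1 bar at 0.302%. With 3' UTR peaks left out of every list the PABPC1 share, 3.81%, is the highest.

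Most CCT3 5' UTR peaks lay close to and past the start. By the peak edge nearest the listed transcription start, 287 peaks lay past it and 57 before it. Of those past it, 47 were at most 50 bases away, a further 60 at most 200, a further 63 at most 500 and a further 44 at most 1000, and 73 were farther. The median midpoint was 258 bases past the start over all 344 peaks (quartiles 67.2 and 806). Peaks before the listed start can lie in a longer transcript of the same gene or in a neighbour, and the RefSeq span of the listed gene held 323 of the 344 (93.9%). At 72 peaks 2 or more RefSeq genes overlapped, so the gene named there is uncertain.

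**Figure D2:**
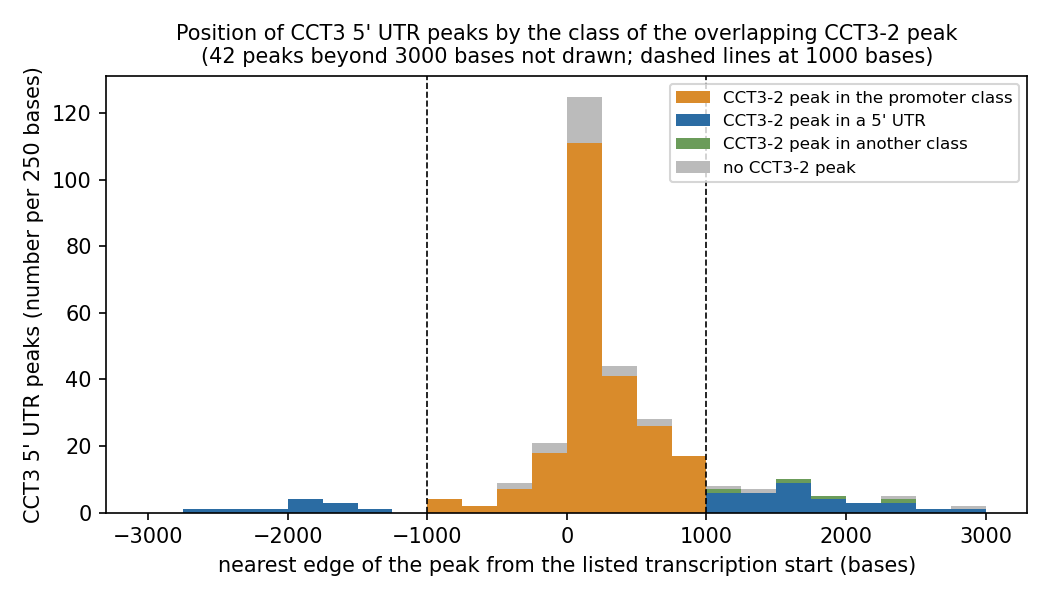
Number of CCT3 5' UTR peaks per 250 bases by distance of the nearest edge from the listed transcription start, coloured by the class of the CCT3-2 peak that overlaps most. Peaks gather just past the start, and at 1000 bases (dashed lines) the overlapping CCT3-2 peaks switch between the promoter and the 5' UTR class. The 42 peaks beyond 3000 bases are not drawn.

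The CCT3-2 list holds most of the same stretches under another class name. At least 1 base overlapped a CCT3-2 peak for 316 of 344 5' UTR peaks (91.9%, 88.5 to 94.3%), beside 89.9% of all CCT3 peaks. The difference from the rest of the list was 2.06 points, with an interval of −1.36 to 4.58 that includes 0. The overlapping CCT3-2 peaks were in the promoter class for 226 members, which are all of those that lay within 1000 bases and had an overlap. Beyond 1000 bases, 90 of 94 members overlapped a CCT3-2 peak and 86 of them a CCT3-2 5' UTR peak. In the other direction, 112 of the 170 CCT3-2 5' UTR peaks (65.9%) overlapped a CCT3 peak, beside 64.3% of all CCT3-2 peaks. The 5' UTR genes of the lists had 61 in common, out of 185 in CCT3 and 91 in CCT3-2.

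The authors' folds were close in the lists. Over the 316 members with an overlap, Spearman's rho of the log2 folds was 0.888, as a description of overlapping stretches from lists that share a library name and, with 1 CCT3 input in the series, may share their input. The median difference, CCT3 minus CCT3-2, was 0.04 log2 units, and 275 pairs (87.0%) were within 0.5. The CCT3-2 fold given for a member is that of the CCT3-2 peak with the largest overlap. Among the exceptions was Vcpip1, a deubiquitinase, whose 202-base peak at chr1:9748170-9748371 had a log2 fold of 5.20 in CCT3. It overlapped 4 CCT3-2 peaks, and the largest overlap, with chr1:9748208-9748270, had 3.20. A Fem1c peak with 5.81 in CCT3 overlapped 2 CCT3-2 peaks, with 3.81 at the largest overlap. Whether such gaps come from how the lists split peaks was not tested. The 28 members with no overlap had a median log2 fold of 3.50, a median −log10 p of 4.79 and a median width of 39.5 bases, against 4.00, 9.31 and 57 bases for the 316 with one. The highest of the 28 were in Snx33 (4.94), Hoxa5 (4.81), Scamp4 (4.66), Yod1 (4.65) and Pcdhgb4 (4.33).

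**Figure D3:**
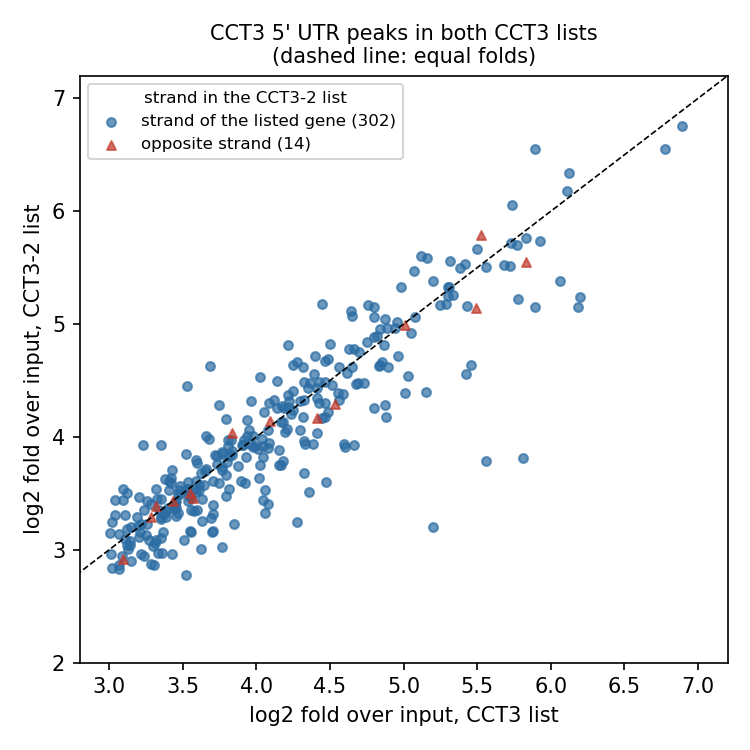
Log2 fold over input of the 316 CCT3 5' UTR peaks with an overlapping CCT3-2 peak, in the CCT3 list (horizontal axis) and the CCT3-2 list (vertical axis), by whether the CCT3-2 strand is that of the listed gene (302, circles) or the opposite one (14, triangles). Most points lie near the dashed line of equal folds.

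The CCT3 table gives no strand, so strand was read from the overlapping CCT3-2 peak. It was that of the listed gene for 302 members (95.6% of 316) and the opposite one for 14. Of these 14, 11 lay outside the span of the listed gene and inside 1 other RefSeq gene. Both Cetn4 peaks, at chr3:37319232-37319291 and chr3:37319326-37319417, lay in Bbs12, a chaperonin-like Bardet-Biedl syndrome protein, with log2 folds of 5.52 and 5.49 in CCT3 and 5.79 and 5.15 in CCT3-2. The peak listed under Hsd3b4, at chr3:98425250-98425505, lay in Zfp697, with log2 folds of 5.01 in CCT3 and 4.99 in CCT3-2. Other opposite-strand peaks named for a neighbour lay in Sgo2a (listed as Kctd18), Fam222b (as Traf4), Hexdc (as Ogfod3), Jrk, Tcf20 and Tiparp. Without an opposite-strand call, the peaks listed under Adal, H2-DMa and Mcts2 also lay outside the listed gene, in Lcmt2, Brd2 and H13. The remaining 3 opposite-strand peaks, in Vcan, Btbd6 and Zfp689, lay where another RefSeq gene overlaps, so the RNA they belong to cannot be told apart by position.

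The folds of the 5' UTR peaks were near those of the whole list. Their median log2 fold was 3.95 (quartiles 3.47 and 4.57, lowest 3.005, highest 6.89), beside 4.05 over all CCT3 peaks. The median −log10 p was 8.91, beside 7.68, and the median width was 57 bases (7 to 325), beside 59. A stricter threshold (log2 fold of 4 or more, −log10 p of 5 or more) was passed by 145 of 344 members (42.2%, 37.0 to 47.4%), beside 41.9% of all CCT3 peaks, so the share was that of the list. Against intron peaks, of which 48.5% passed, the difference, 5' UTR minus intron, was −6.32 points (−11.7 to −0.769). Against 3' UTR peaks (36.4%) it was 5.79 points (0.25 to 11.5), and against exon peaks (40.1%) it was 2.05 points (−3.22 to 7.49), an interval that includes 0. These intervals treat peaks as independent, although 79 of the 344 members lay in 10 genes. By gene the direction against 3' UTR peaks was the other way, with the median 5' UTR fold above in 20 and below in 36 of 56 genes.

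**Figure D4:**
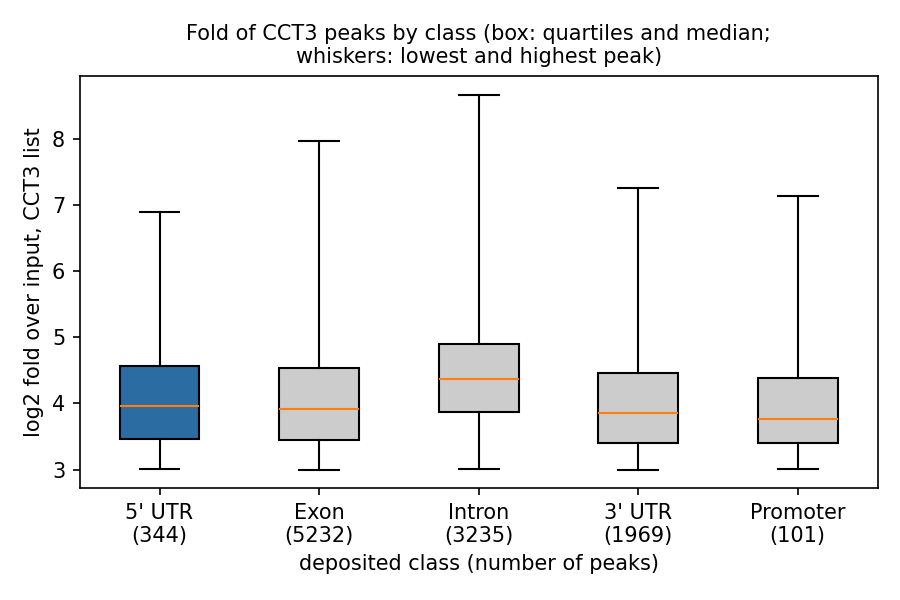
Log2 fold over input of CCT3 peaks by deposited class, with the number of peaks below each box. The boxes give quartiles and median and the whiskers the lowest and highest peak. The 5' UTR median of 3.95 lies between the exon (3.91) and intron (4.36) medians.

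The 10 highest folds lay in 7 genes. Ntmt1, which methylates the N termini of proteins, held the highest pair, at chr2:30815393-30815437 with a log2 fold of 6.89 in CCT3 and 6.75 in CCT3-2, and at chr2:30815491-30815561 with 6.77 in CCT3 and 6.55 in CCT3-2. Both lay before the listed start, at −2532 and −2408 bases, and inside the RefSeq span of Ntmt1, and the gene also held 18 CCT3 peaks in introns and 5 in exons. Snx33, a sorting nexin of endocytosis, followed with 6.20 in CCT3 and 5.24 in CCT3-2 at chr9:56926925-56926962. Banp, a nuclear BEN domain protein, had a peak at chr8:121973872-121973974 with 5.92 in CCT3 and 5.73 in CCT3-2. Zbed6, a transposon-derived repressor of transcription, had the smallest p, with a −log10 p at the 400 at which the authors' values stop (log2 fold 5.83 in CCT3 and 5.76 in CCT3-2). At the low end, the Tsc22d1 peak at chr14:76415205-76415216 had a log2 fold of 3.005 and no CCT3-2 peak. Peaks listed under Zbtb5, Usp54, Adal and Pura had a −log10 p of 3.16, just inside the lower limit of 3 that both values have in the list. The peak listed under Adal lay outside the span of that gene and in Lcmt2.

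Rows of separate peaks along 1 leader were common. A single 5' UTR peak was listed for 115 genes, and the other 70 genes held 229 peaks. Of 159 neighbouring pairs within a listed gene, 94 (59.1%) were at most 100 bases apart, with a median gap of 81 bases. Some pairs are listed under different transcripts, such as Cdk13 at chr13:17772815-17772867 and chr13:17804680-17804786. Peaks apart in CCT3 can also meet the same CCT3-2 peak, as Smcr8 did at chr11:60777678-60777727 and chr11:60777750-60777782. The 10 genes with the most peaks held 79 of the 344 (23.0%), so the members are not independent of each other.

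Pcdh17 had 11 peaks, the most of any gene, with midpoints 55 to 2459.5 bases past the start. Their log2 folds ran from 3.58 to 6.12 in CCT3, and 10 of the 11 overlapped a CCT3-2 peak. In order along the leader the log2 folds in CCT3 were 3.58, 3.84, 5.42, 4.39, 4.60, 6.12, 4.69, 4.01, 4.45, 3.61 and 3.59. In CCT3-2 the overlapping peaks had 3.34, none at the second, 5.53, 4.56, 3.91, 6.34, 4.48, 3.90, 5.17, 3.53 and 3.77. The highest in both lists was the same stretch, chr14:84445190-84445238, and the folds at either end of the row were among its lowest. Past the leader the gene had 7 exon peaks with a highest log2 fold of 3.81, lower than 8 of the 11 leader peaks, and no PABPC1 peak.

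Smad7, the inhibitory SMAD that limits TGF-β signalling, had 9 peaks within a stretch of chr18:75368026-75368858. Their log2 folds ran from 4.23 to 6.18 in CCT3, and all 9 overlapped a CCT3-2 peak on the Smad7 strand. In order along the mRNA they were 6.18, 6.06, 5.42, 4.88, 6.11, 4.56, 4.23, 4.80 and 5.05 in CCT3, and 5.15, 5.38, 4.55, 5.04, 6.18, 4.39, 4.21, 4.26 and 4.92 in CCT3-2. The highest differed between the lists, at chr18:75368026-75368082 in CCT3 and chr18:75368507-75368562 in CCT3-2. Only 2 other CCT3 peaks were listed for the gene, both in exons, and it had no PABPC1 peak. The signs of the listed distances in Smad7 differ between neighbouring peaks because different transcripts are listed.

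Snx33 also had 9 peaks, with log2 folds from 3.52 to 6.20 in CCT3, of which 8 overlapped a CCT3-2 peak, and it had 10 further CCT3 peaks in exons and 6 in the 3' UTR. Morc2a, a MORC family ATPase of chromatin silencing, had 8 peaks (3.63 to 5.73), all of which overlapped a CCT3-2 peak on its own strand. Its neighbour Tug1 is a noncoding RNA transcribed in the opposite direction, so no 5' UTR class applies to it, and the strand places these 8 peaks on Morc2a. Dst, the cytoskeletal linker dystonin, had 8 peaks (3.75 to 5.56), all with a CCT3-2 overlap, beside 58 exon peaks. Irs1, the insulin receptor substrate, had 8 peaks (3.65 to 5.46), 7 with an overlap, beside 18 exon peaks.

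Zbed6 had 7 peaks (3.38 to 5.89), all with a CCT3-2 overlap, but the gene lies inside Zc3h11a on the same strand, so its reads and those of the Zc3h11a precursor cannot be told apart. Of those 7, 6 lay in the span of Zbed6 and the lowest, at chr1:133654204-133654250, lay past it in Zc3h11a alone. Tigd2, derived from a Tigger transposon, had 7 peaks (3.43 to 5.74), Birc2, a ubiquitin ligase that restrains apoptosis, had 6 (3.35 to 5.12), and Fbxo48 had 6 (3.15 to 4.98). Genes with 5 or more peaks numbered 15 in all, and Rbm6, Flrt1, Bcl2, Tsc22d1 and Smcr8 had 5 each.

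**Figure D5:**
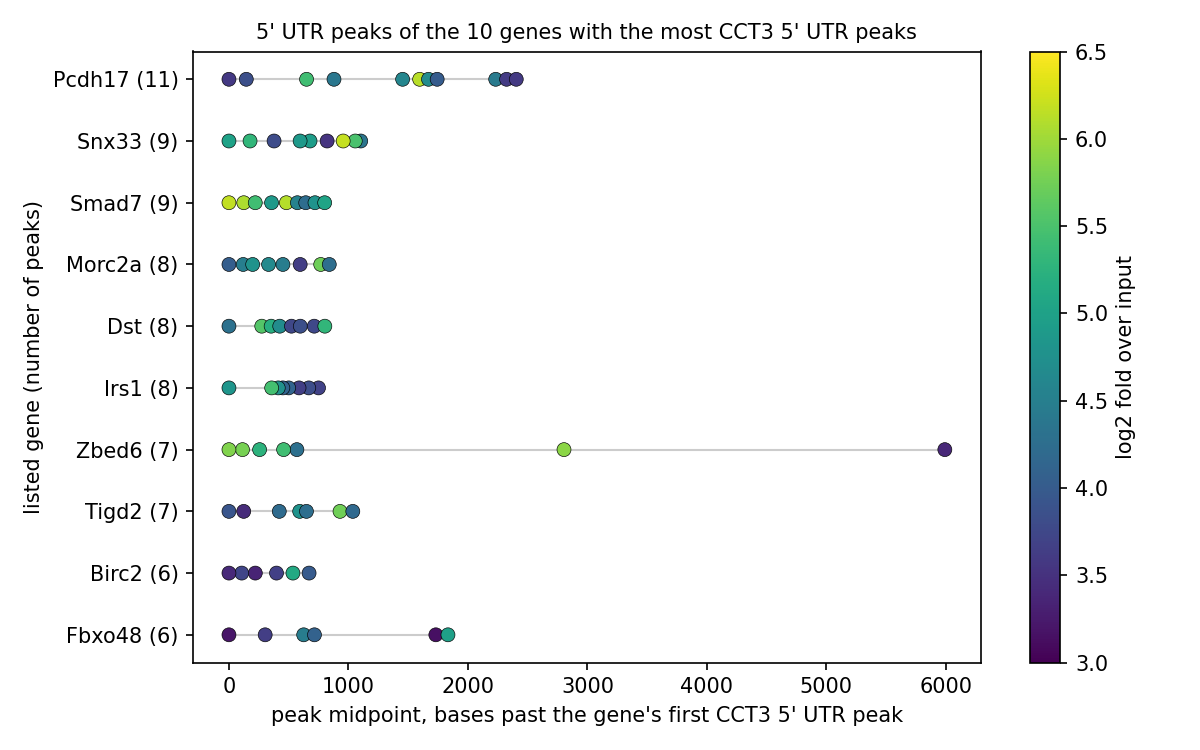
Midpoints of the CCT3 5' UTR peaks in the 10 genes with the most of them, in bases past the first such peak of the gene in the direction of transcription, coloured by log2 fold over input. Pcdh17 has 11 spread-out peaks, the 9 Smad7 peaks lie within 1000 bases, and the last Zbed6 peak lies far past the rest.

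The widest peaks were in Hspa14 (325 bases, chr2:3508834-3509158, log2 fold 4.39 in CCT3 and 3.93 in CCT3-2), a ribosome-associated Hsp70, in the Zfp697 stretch listed as Hsd3b4 (256 bases), in Zfc3h1 (207 bases, chr10:115385108-115385314, 4.56 in CCT3 and 4.62 in CCT3-2), in Zbed6 (204 bases, chr1:133657313-133657516, 5.89 in CCT3 and 6.55 in CCT3-2) and in Vcpip1. The CCT3-2 list splits such stretches, with 5 overlapping CCT3-2 peaks for Hspa14, 3 for Zfc3h1, 8 for Zbed6 and 4 for Vcpip1. Each CCT3-2 fold is that of the largest overlap only, which for Zbed6 is in the exon class.

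A run of neighbouring members lay in the gamma protocadherin (Pcdhg) cluster, whose genes encode cell adhesion proteins with a variable first exon each and shared last exons. This family was singled out after its values were seen. Of its 21 protein-coding RefSeq genes, 12 had a CCT3 5' UTR peak, against 1 of 22 in the beta cluster and 0 of 12 in the alpha cluster, where a count of 0 allows a share of up to 25% (3 genes of the total). Over all protein-coding genes the share was 0.808% (177 of 21900). CCT3 peaks of any class followed the same order, with 19 of 21 gamma, 5 of 22 beta and 0 of 12 alpha genes, so the contrast was not limited to 5' UTRs. The 18 Pcdhg peaks lay between chr18:37689888-37690002 in Pcdhgb2 and chr18:37815502-37815540 in Pcdhgc4. Their log2 folds ran from 3.28 to 5.89 with a median of 4.45 in CCT3, and 17 of the 18 overlapped a CCT3-2 peak, all on the strand of the cluster. Their midpoints fell 78 to 570.5 bases past the listed start, with a median of 123. Pcdhgb2 had the highest, with 5.89 in CCT3 and 5.15 in CCT3-2, followed by Pcdhga12 (5.68 and 5.52), Pcdhga5 (5.38 and 5.49) and Pcdhgc4 (5.34 and 5.25), each pair CCT3 before CCT3-2.

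The cluster held 122 further CCT3 peaks, of which 115 were in exons, and 0 PABPC1 peaks. The variable exons are close paralogs, and the sources used here do not say how reads that match several of them were counted, so the assignment of a peak to 1 of them is uncertain. Without the cluster, 326 peaks remained, their median log2 fold was 3.92, and 41.4% passed the stricter threshold. Chromosome 18, which holds the cluster and Smad7, carried 11.0% of the members, against 4.15% of the other CCT3 peaks. Chromosome 1, which holds Dst and Irs1 (8 members each), Zbed6 (7) and Bcl2 (5), carried 12.8% against 5.97%.

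Genes with a CCT3 5' UTR peak usually had CCT3 peaks elsewhere. Of the 185, 152 (82.2%, 76.0 to 87.0%) had a CCT3 peak of another class, 131 of them in exons, 56 in 3' UTRs and 41 in introns. The same share among genes with a CCT3 3' UTR peak was 53.4% (365 of 684), a difference of 28.8 points (21.6 to 34.9). The 185 genes had a median of 7 CCT3 peaks, against 2 for the other genes of the list, and 63.8% of them had at least 5, against 31.3%. A gene with more peaks has more chances of 1 in its 5' UTR, and the part this plays in these differences was not tested.

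Within a gene, 5' UTR peaks more often had lower than higher folds than the gene's other peaks. In the 152 genes with another class, the median log2 fold of the 5' UTR peaks was above that of the gene's other peaks in 63 and below it in 89, with a median difference, 5' UTR minus other, of −0.19 (quartiles −0.53 and 0.36). Against exon peaks alone it was above in 59 and below in 71 of 131 genes, and against 3' UTR peaks above in 20 and below in 36 of 56. Pcdh17 and Smad7 were above, with highest folds of 6.12 and 6.18 in the leader against 3.81 and 4.91 elsewhere. Zfp322a, a zinc finger gene, was below, with 5.73 in the leader against 7.18 elsewhere.

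Overlap with PABPC1 peaks was rare in 5' UTRs and in the rest of the list. Of the 344 members, 1 overlapped a PABPC1 peak (0.291%, 0.0513 to 1.63%), beside 0.669% of all CCT3 peaks, and the difference from the rest of the list was −0.390 points (−0.687 to 0.954), an interval that includes 0. The overlap was in Tmcc1, a membrane protein of the endoplasmic reticulum, at chr6:116193271-116193362, with log2 folds of 3.71 in CCT3 and 3.61 in CCT3-2, and 3.13 for the PABPC1 peak.

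By gene, 48 of the 185 (25.9%, 20.2 to 32.7%) also had a PABPC1 peak somewhere, against 663 of 2025 other CCT3 genes (32.7%), a difference of −6.79 points (−12.9 to 0.258) that includes 0. At the stricter threshold in both lists the share was 12.8% (10 of 78), against 18.3% of other CCT3 genes, a difference of −5.46 points (−11.7 to 4.00). Those 48 genes held 130 PABPC1 peaks, 114 of them (87.7%) in 3' UTRs. The 78 members in them lay a median of 24628.5 genomic bases, introns included, from the nearest PABPC1 peak of the gene, and 4 lay within 1000 bases. The 78 include the peaks listed under Kctd18, Cetn4, Traf4 and Dync2h1, which lay outside the span of the listed gene. For them the PABPC1 peak may be on another RNA, and these genes also count among the 48. Cdkn2c, a CDK4/6 inhibitor, had 1 CCT3 5' UTR peak (3.36 in CCT3 and 3.29 in CCT3-2) and no other CCT3 peak, but 7 PABPC1 peaks, 5 in the 3' UTR, with a highest log2 fold of 6.75. Of the 20 genes with a PABPC1 5' UTR peak, 1 was also among the 185, the imprinted Gnas locus of the stimulatory G protein, with 1 CCT3 5' UTR peak (3.12) and 5 PABPC1 5' UTR peaks. The PABPC1 5' UTR class holds no peak within 1000 bases of a start, where 250 of the 344 CCT3 members lie, so these gene sets are unlike. The 185 genes also held 4 PABPC1 peaks in the promoter class.

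Gene lists are set beside 2 backgrounds, the 177 of 21900 protein-coding genes (0.808%) with a CCT3 5' UTR peak and the 177 of 2003 (8.84%) among those with a CCT3 peak of any class. Of 23 mRNAs known for upstream reading frames, 5 had any CCT3 peak and 1 a 5' UTR peak, Smad7. Of 27 with a reported internal ribosome entry site, 7 had any CCT3 peak and 3 a 5' UTR peak, namely Birc2, Bcl2 and Runx1. Bcl2, which blocks apoptosis, had 5 peaks (3.32 to 4.96), all with a CCT3-2 overlap, and Runx1, a transcription factor of blood formation, had 1 (4.84 in CCT3 and 4.64 in CCT3-2). None of these 4 genes had a 5' UTR peak in the CCT3-2 list, where stretches within 1000 bases of a start are in the promoter class.

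For 5 lists the count was 0, which at a share of 0.808% over all genes is no result about them. These were 42 translation factors (a count of 0 allows up to 7.14%, as 3 genes of the total), 78 ribosomal protein genes (up to 3.85%), 40 TRiC subunits, partners and substrates (up to 7.5%), 101 RNA-binding protein genes (up to 2.97%) and 61 ubiquitin ligases (up to 4.92%). The lists are not complete, and members such as the RNA-binding protein gene Rbm6 and the ubiquitin ligase gene Birc2 were not on them. A CCT3 peak of another class was listed for 3 translation factors, 3 ribosomal protein genes, 3 genes of the TRiC list, 24 RNA-binding protein genes and 20 ubiquitin ligases.

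Regulators of chromatin and signalling gave scattered members. Of 95 chromatin regulators 3 had a 5' UTR peak, Kmt2a (3.71 in CCT3 and 3.32 in CCT3-2), the acetyltransferase Kat6a (3.47 in CCT3, no CCT3-2 peak) and the DNA demethylase Tet3 (3.33 in CCT3 and 2.98 in CCT3-2), although 44 had a CCT3 peak of any class. The class is that of the annotation, and the Kmt2a peak holds an ATG, so part of it may be coding. The 3 of 44 (6.82%) stand beside 8.84% for all protein-coding genes with a CCT3 peak. Of 100 protein kinases 4 did, the transcriptional kinases Cdk12 (highest 4.501 in CCT3) and Cdk13 (3.58), the casein kinase Csnk1g3 (3.66) and the Hippo kinase Lats2 (3.56). Of 78 small GTPases and their regulators 2 did, Rab11fip2 (4.65) and Arhgef11 (3.48), and of 50 cell cycle genes 1, Cdkn2c. Among genes with any CCT3 peak these were 4 of 30, 2 of 14 and 1 of 10. The shares of the whole lists stand beside 0.808% over all protein-coding genes. These lists are not complete either, and members such as the chromatin silencing gene Morc2a and the kinase gene Stk11 were not on them.

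Zinc finger genes, counted by symbol, were 15 of the 185 (8.11%), against 9.28% of other CCT3 genes, a difference of −1.18 points (−4.58 to 3.81). With the CCT3-2 list the direction was the other way, at 15 of 91 (16.5%) against 8.22% of other CCT3-2 genes, a difference of 8.26 points (1.94 to 17.3). The 5' UTR class of that list holds no peak within 1000 bases of a start, where 250 of the 344 CCT3 members lie. The shares are thus for unlike sets of peaks, and whether the lists differ on like sets was not tested. Zfp322a had the highest peak of the zinc finger genes, at chr13:23357461-23357618, with 5.73 in CCT3 and 5.72 in CCT3-2. Among developmental transcription factors, families picked after their values were seen, 4 of 39 Hox genes had one (Hoxa5, Hoxc4, Hoxc5 and Hoxb5), as did 2 of 19 Sox genes (Sox11 and Sox4), beside 0.808% of all protein-coding genes. Being picked for their values, these counts support nothing. Hoxc4 had 3 peaks with log2 folds of 4.05 to 4.47 in CCT3, and Sox11 had 2, of 3.82 and 4.63 in CCT3 and 3.54 and 4.77 in CCT3-2.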

How the data were processed

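eCLIP peak lists of CCT3, CCT3-2 and PABPC1 were used, 1 per immunoprecipitation. Reads were demultiplexed with bcl2fastq 2.20 and the build is mm10, per the submitters' processing notes. Not given in the sources used here are the aligner, peak caller and annotation tool, the handling of duplicates and any molecular identifiers. The authors deposited a log2 fold and a −log10 p per peak, in named columns of the CCT3 table per the file headers. The PABPC1 and CCT3-2 tables have unnamed columns, read as the same quantities from their order and ranges. Classes, listed genes and distances are those of the deposited annotation. There were 0 columns of other samples.

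Members are the CCT3 peaks whose class is 5' UTR. Overlaps needed at least 1 shared base regardless of strand, since the CCT3 table has none. Gene spans and start windows are from RefSeq GRCm38.p6. Shares have Wilson and differences Newcombe 95% intervals, which cover counting error only, and PCR reads without molecular identifiers are not independent molecules. No test across samples was possible, since PABPC1 has 1 list and both CCT3 lists carry the same library name. Upper limits at a count of 0 are 3 of the total, not Wilson limits. Scripts were checked on simulated data and used Python 3.11.15, numpy 2.4.6, pandas 2.3.3, scipy 1.17.1 and matplotlib 3.10.9.

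Members and gene lists were chosen with earlier results of these data known. The text names the genes of the 10 highest folds, the 10 genes with most members, up to 5 overlaps with PABPC1, the 5 widest peaks, the 5 highest folds without a CCT3-2 overlap, up to 4 genes per list and the peaks just inside the lower limits. Not every gene family is reported here. Genes outside that rule, such as the neighbours on the opposite strand and the Hox and Sox genes, were named after their values were seen. The alternatives were the CCT3-2 list in place of CCT3, stricter thresholds, merging within 10 bases, covered bases, 50% reciprocal overlap, the highest peak of each gene and RefSeq position. Chosen after seeing the data were peaks beyond 1000 bases, with and without 3' UTR peaks, and the list without the Pcdhg cluster.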

Additional observations from a re-analysis of the deposited data

How the results depend on the processing

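The 11 results were recomputed under 39 alternatives in all, of which 21 gave a value inside the interval of the reported one (gene counts, within 1.5 times) and 18 did not. With the CCT3-2 list in place of CCT3, the 5' UTR share was 0.912%, the overlap with PABPC1 0% (0 of 170, up to 1.76% as 3 of the total, 2.21% as Wilson limit), the median width 50 bases, the median distance 1810 bases, the genes 91, those with another class 91.2% and zinc finger genes 16.5%. That list puts every peak within 1000 bases of a start in the promoter class. For CCT3 peaks beyond 1000 bases, likewise, the share was 1.02% (1.27% with 3' UTR peaks left out), the median distance 1787.5 bases and the genes 60. The stricter threshold left 78 genes, an overlap with CCT3-2 of 83.4% when both lists were filtered, 0% with PABPC1 (0 of 145, 2.07% and 2.58% likewise) and 12.8% of genes with a PABPC1 peak. At a fold of at least 5, 13.7% of members passed. Overlap with CCT3-2 was 79.4% at 50% reciprocal overlap and 25% when only CCT3-2 5' UTR peaks counted. No paired analysis was possible because PABPC1 has 1 sample, so the groups compared share fewer than 2 replicate numbers, and the inputs have no list of their own.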
